A study of Mus musculus with 4 samples.

Results

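The genes described here encode the contractile machinery of the myoepithelial (basal) layer of the mammary gland, together with the hormone receptor that sets it off. They were taken by symbol from the gene count table: Oxtr, Mylk, Myl9, Myh11, Acta2, Actg2, Tpm1, Tpm2, Cnn1 and Tagln. All 10 were found among the 24548 genes of the table, and all 10 were among the 23128 genes with at least 40 reads over the 4 libraries. The libraries are a Foxp1 ChIP and an input of basal cells (named DP in the files) and a Foxp1 ChIP and an input of luminal cells (named LUM). Foxp1 is a forkhead transcription factor, and an input is chromatin sequenced without an antibody. All cells came from the mammary epithelium of wild-type FVB/N females aged 10 to 12 weeks, with no treatment (the sample labels spell the strain FBV/N). Each group is 1 library, the labels do not say how many mice were pooled, and a control antibody was not analysed here. Intervals below therefore cover counting error only, no p-value is given, and all comparisons draw on the same 4 libraries.

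Milk is ejected when oxytocin, released by the pituitary in response to suckling, binds its receptor on myoepithelial cells. The receptor raises cytosolic calcium, calcium-bound calmodulin activates myosin light chain kinase, and the phosphorylated myosin pulls on smooth muscle actin filaments that are dressed with tropomyosin and calponin. Luminal cells, which line the duct, do not carry this smooth muscle apparatus, so its genes serve as markers of the basal layer. The measurements here are of DNA recovered near these genes. They give no level of their RNA or protein.

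What a count covers was read from the inputs of long genes (over 20000 bp). Where the start of another gene lay within 500 bp of the start, the median was 67 reads over both inputs (289 genes). At 3000 to 4000 bp between starts it was 234 reads (24 genes), and at 5000 to 6000 bp it was 379 reads (18 genes). Beyond 20000 bp it was 369 reads (3073 genes). Distances between gene ends made no such difference, with medians of 371 to 414 reads in every class. From these values each count was taken to cover a window of a few kilobases around the gene start, with reads shared by 2 windows left out. No source used here states this. For the 7 contractile genes whose strand is in the RefSeq promoter table, the nearest other gene start found lay between 12925 bp (Cnn1) and 95367 bp (Mylk) away. These distances are outside the range in which counts were low. Only the 18250 genes with a strand in that table were searched, so a nearer start of another gene could have been missed. For a gene with several starts, the one used is not stated. For Mylk the RefSeq gene record begins at 34745199 on chromosome 16, and its distance was taken from there. Its promoter window in the RefSeq table begins at 34784700.

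**Figure D1:**
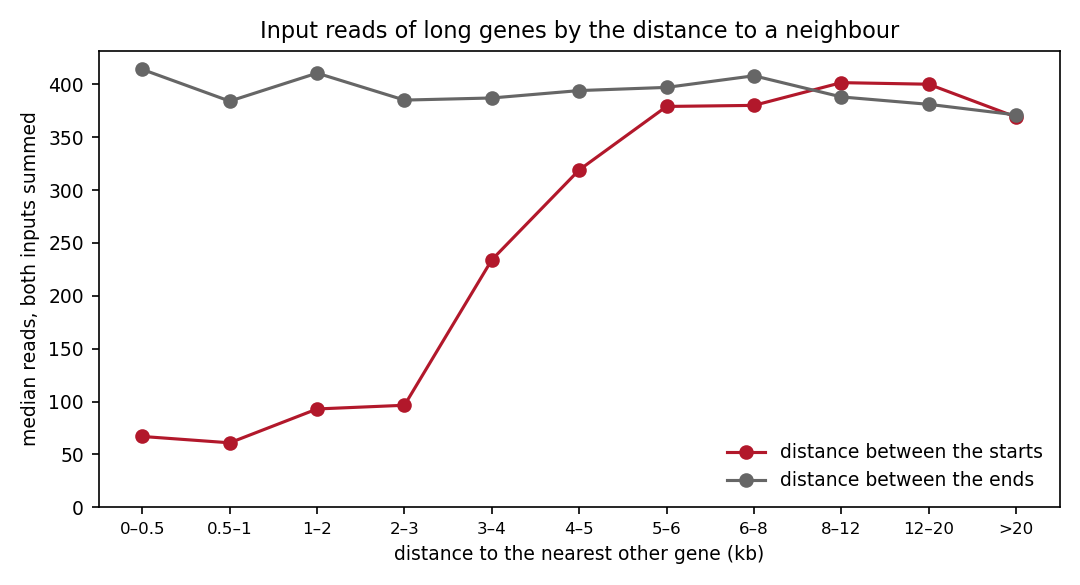
Median reads over both inputs (vertical axis) of long genes, by the distance to the nearest other gene in kb (horizontal axis, classes), measured between gene starts (red) or between gene ends (grey). The medians are low where starts are close, from 67 reads under 500 bp, and level off from 5000 bp, whereas the distance between ends leaves them at 371 to 414 reads.

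Where the counted window lies around the gene start as inferred above, it would hold the promoter. RefSeq promoter sequence (GRCm38.p6) was examined for the 7 genes with an entry, 300 bases each, from 250 before to 50 after the start. The 250 bases before the start, 5′ to 3′ on the gene strand, are shown for the 5 genes whose ChIP enrichment was called different between the cell types and for Acta2, whose promoter is known to bind serum response factor. Capitals mark CArG boxes, the sites of serum response factor, with at most 1 G or C among the 6 central bases, and the forkhead core TGTTT or its reverse complement AAACA.
Acta2, chr19:34255374-34255623, minus strand: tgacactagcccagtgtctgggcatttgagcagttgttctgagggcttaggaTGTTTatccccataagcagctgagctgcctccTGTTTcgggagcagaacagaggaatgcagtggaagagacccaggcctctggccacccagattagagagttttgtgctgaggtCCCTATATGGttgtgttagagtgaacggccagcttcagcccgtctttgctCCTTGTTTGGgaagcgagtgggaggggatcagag
Myl9, chr2:156775214-156775463, plus strand: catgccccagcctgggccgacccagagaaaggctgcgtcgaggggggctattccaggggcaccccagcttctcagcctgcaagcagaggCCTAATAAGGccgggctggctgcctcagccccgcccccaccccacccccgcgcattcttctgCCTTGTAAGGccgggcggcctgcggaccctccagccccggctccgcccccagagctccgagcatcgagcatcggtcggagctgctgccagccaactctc
Oxtr, chr6:112489826-112490075, minus strand: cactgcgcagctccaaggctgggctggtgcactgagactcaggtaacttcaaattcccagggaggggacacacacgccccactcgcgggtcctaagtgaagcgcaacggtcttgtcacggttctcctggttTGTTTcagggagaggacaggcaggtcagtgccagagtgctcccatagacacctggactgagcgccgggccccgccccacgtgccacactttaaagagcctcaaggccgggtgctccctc
Cnn1, chr9:22099003-22099252, plus strand: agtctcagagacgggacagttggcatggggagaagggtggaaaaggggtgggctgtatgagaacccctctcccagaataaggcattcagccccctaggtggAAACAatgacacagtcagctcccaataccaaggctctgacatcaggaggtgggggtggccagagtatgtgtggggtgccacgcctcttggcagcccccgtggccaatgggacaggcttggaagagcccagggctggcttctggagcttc
Tpm1, chr9:67049214-67049463, minus strand: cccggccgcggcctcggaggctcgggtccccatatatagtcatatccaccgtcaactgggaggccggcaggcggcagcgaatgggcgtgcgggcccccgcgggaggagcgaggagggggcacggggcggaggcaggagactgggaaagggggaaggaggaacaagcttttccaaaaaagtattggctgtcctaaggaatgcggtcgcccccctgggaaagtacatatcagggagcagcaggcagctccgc
Tpm2, chr4:43523555-43523804, minus strand: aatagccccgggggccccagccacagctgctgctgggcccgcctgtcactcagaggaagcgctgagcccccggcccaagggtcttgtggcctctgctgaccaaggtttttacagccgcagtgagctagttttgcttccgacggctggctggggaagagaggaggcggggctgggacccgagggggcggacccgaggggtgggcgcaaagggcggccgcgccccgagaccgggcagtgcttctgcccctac

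The Myl9 window held a full CArG box, CCTAATAAGG, 161 bases before the start, which 1.63% of 32851 RefSeq windows of the same length hold. It also held CCTTGTAAGG at 99 bases, a box with 1 G. Acta2 held 2 boxes with 1 G or C, CCCTATATGG at 84 bases and CCTTGTTTGG at 34 bases before the start. Boxes of that kind were in 8.5% of all windows and in 2 of the 7 here. Longer forkhead words were searched on both strands. TGTTTAC was in none of the 7 windows and in 3.65% of all. Of the related words, TATTTAT was in none of the 7 and in 5.6% of all, and TATTTGT was in none of the 7 and in 3.63% of all. The shorter core TGTTT was in 3 of the 7 windows, those of Acta2, Oxtr and Cnn1, and in 50.5% of all. In Acta2, 1 of its 3 copies lies inside the box at 34 bases. A match is a description of letters, and these windows are shorter than the counted ones. GC content was 53.3% to 70.3% in the 7 windows, highest in Tpm2, against a median of 52.7% over all windows. A check of GC content over the whole set was void, since 3 of the 10 genes have no window, and its part in the ratios was not tested.

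The plot of reads by library shows the levels of the set. In CPM (counts per library size, in the usual unit), scaled by TMM (trimmed mean of M values, which sets the bulk of genes equal), 8 of the 10 genes had their highest value in basal ChIP. The exceptions were Actg2, highest in basal input, and Mylk, highest in luminal input. For 5 of the 10 the lowest value was in luminal ChIP. The shares of all tested genes with such an order were not counted. Some of these orders lie within counting error. Basal ChIP and basal input overlapped in Myh11 (60.8 and 59.1 CPM) and Tagln (37.4 and 35.2 CPM). Summed over the set, basal ChIP had 2592 reads over 1659 in basal input, a 1.33-fold ratio (99% interval 1.22 to 1.44). Luminal ChIP had 1446 reads over 2074 in luminal input, a ratio of 0.949 (0.868 to 1.04). The 4 libraries held 3772902, 3080114, 3163948 and 4201459 reads in counted windows, in the order basal ChIP, basal input, luminal ChIP, luminal input. A typical tested gene had a median of 160, 144, 136 and 192 reads in them, so that single ratios carry wide intervals.

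**Figure D2:**
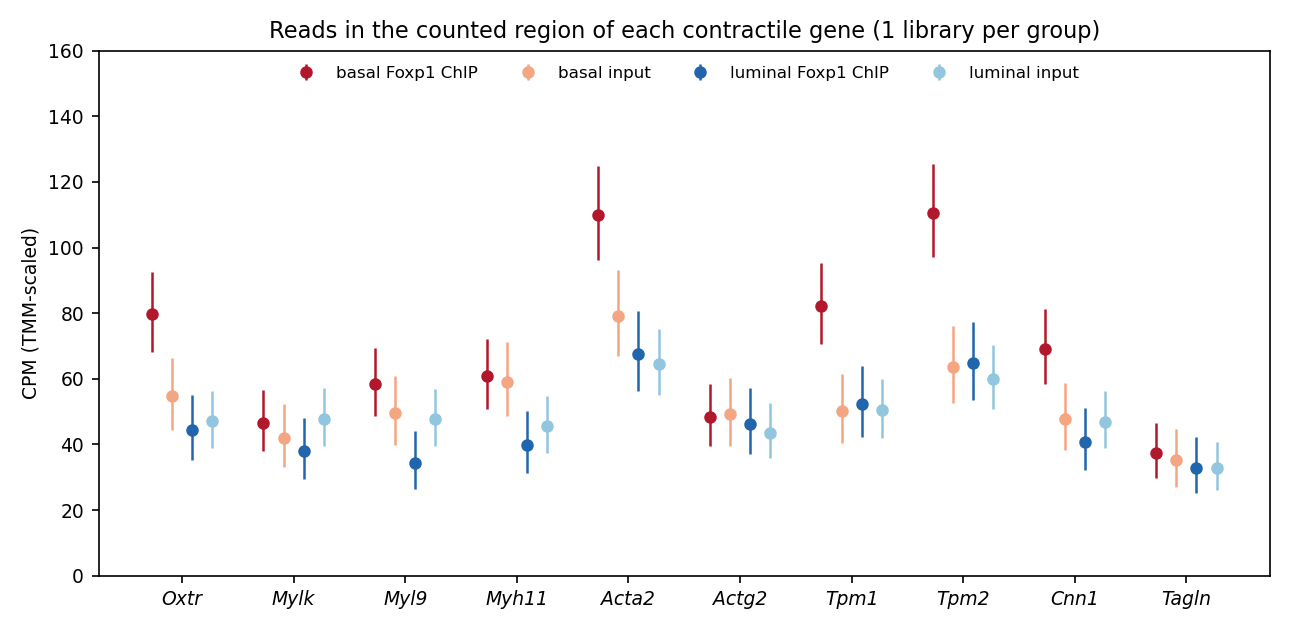
TMM-scaled CPM (vertical axis) in the counted window of each contractile gene in the 4 libraries; points are single libraries and bars are exact 99% Poisson intervals. Basal ChIP stands highest for 8 of the 10 genes, with Acta2 at 110 and Tpm2 at 111 CPM, whereas Actg2 and Tagln have 4 values close together.

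A gene was called higher or lower when its ratio reached 1.5-fold (0.58 on the log2 scale) and its 99% interval excluded 1. In basal ChIP over basal input, 2 of the 10 contractile genes, Tpm1 and Tpm2, were called higher and none lower, against 4.24% of all tested genes called higher and 4.06% called lower. Their median log2 ratio was 0.35, against -0.01 over all tested genes, and 9 of the 10 lay above 0, against 48.45% of all tested genes. In luminal ChIP over luminal input none was called in either direction, where 1.5% of all genes were called higher and 2.13% lower. There the median log2 ratio was -0.04, against -0.002 over all genes, and 5 of the 10 lay above 0. The scaling sets the zero of these ratios. Centred on 1089 olfactory receptor genes (a class expressed chiefly in the nose), 5 of the 10 were called higher in basal cells, and so were 12.9% of all genes, with 1.02% lower. With total counts the 2 calls stood and 3.02% of all genes were higher and 5.67% lower.

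Oxtr encodes the oxytocin receptor, a G protein-coupled receptor at the head of the contraction pathway (Entrez gene 18430, chromosome 6, 112473683 to 112491035). It had 294 reads in basal ChIP and 171 in basal input, and 139 reads in luminal ChIP and 201 in luminal input. Its basal ratio was 1.46-fold (99% interval 1.14 to 1.88), which excludes 1 but stops short of 1.5-fold, and its luminal ratio was 0.941 (0.702 to 1.26). Only the basal ChIP library stood high: its interval in CPM, 68.3 to 92.5, did not overlap those of the other libraries.

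Mylk encodes myosin light chain kinase, the calcium-calmodulin-dependent enzyme that switches on smooth muscle myosin (Entrez gene 107589, chromosome 16, 34745199 to 35002436). It had 172 reads in basal ChIP and 131 in basal input, and 119 reads in luminal ChIP and 204 in luminal input. Neither the basal ratio, 1.11-fold (0.822 to 1.52), nor the luminal ratio, 0.794 (0.584 to 1.07), was called.

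Myl9 encodes the regulatory light chain that this kinase phosphorylates (Entrez gene 98932, chromosome 2, 156775408 to 156781657). It had 215 reads in basal ChIP and 155 in basal input, and 108 reads in luminal ChIP and 203 in luminal input. Its luminal ChIP value, 34.5 CPM, was its lowest of the 4. The basal ratio of 1.18-fold (0.894 to 1.56) was not called. The luminal ratio of 0.724 (0.526 to 0.987) was the one luminal interval of the set that excluded 1, below the fold needed for a call, and 7.32% of all tested genes had a lower luminal ratio.

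Myh11 encodes the smooth muscle myosin heavy chain, the motor itself (Entrez gene 17880, chromosome 16, 14194527 to 14292188). It had 224 reads in basal ChIP and 185 in basal input, and 125 reads in luminal ChIP and 194 in luminal input. Scaled values were 60.8 and 59.1 CPM in the basal libraries, against 39.9 and 45.5 in the luminal ones, so that it was high in both basal libraries rather than in ChIP alone. The ratios were 1.03-fold (0.792 to 1.34) in basal and 0.877 (0.646 to 1.18) in luminal cells.

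Acta2 encodes smooth muscle alpha-actin, the usual marker of myoepithelium (Entrez gene 11475, chromosome 19, 34240336 to 34255585). It had 405 reads in basal ChIP and 248 in basal input, and 212 reads in luminal ChIP and 275 in luminal input. Both basal libraries again stood above both luminal ones, at 110 and 79.3 CPM against 67.7 and 64.5. Its basal ratio was 1.39-fold (1.12 to 1.71), above 1 but not called, and its luminal ratio was 1.05 (0.825 to 1.33).

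Actg2 encodes the gamma smooth muscle actin, abundant in visceral muscle (Entrez gene 11468, chromosome 6, 83512909 to 83536251). Its basal ChIP held 178 reads and its basal input 154, while luminal ChIP held 145 and luminal input 186. No library stood apart, with 43.6 to 49.2 CPM in all 4. The ratios were 0.981 (0.735 to 1.31) in basal and 1.06 (0.791 to 1.42) in luminal cells, and Actg2 was the 1 gene of the set with a basal ratio below 1.

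The tropomyosins, coiled-coil proteins that lie along the actin filament and gate myosin's access to it, had the highest basal ratios. Tpm2 is Entrez gene 22004, on chromosome 4 at 43513726 to 43523583. In basal cells its ChIP gave 408 reads and its input 199, and in luminal cells the ChIP gave 203 and the input 256. It was called higher in basal cells at 1.74-fold (1.39 to 2.19) and not in luminal cells at 1.08 (0.842 to 1.38). Tpm1 is Entrez gene 22003, on chromosome 9 at 67022590 to 67049672. In basal cells its ChIP gave 303 reads and its input 157, and in luminal cells the ChIP gave 164 and the input 215. It was called higher in basal cells at 1.64-fold (1.27 to 2.13) and not in luminal cells at 1.04 (0.789 to 1.36). For both genes basal ChIP alone was high, and the 3 other libraries lay together at 60.0 to 64.8 CPM in Tpm2 and 50.2 to 52.3 in Tpm1. In basal cells 98.12% of tested genes had a lower ratio than Tpm2 and 97.15% a lower ratio than Tpm1. Both calls were kept under 8 of 9 other settings, the exception being a 2-fold threshold. Of the 8, a narrower interval and no fold minimum only relax the rule, so they could not remove a call. Leaving out the count filter barely moved the ratios. Total counts lowered them to log2 0.74 in Tpm2 and 0.66 in Tpm1. The calls also stood with an interval widened by the spread among olfactory receptor genes. Both are also made in many non-muscle cells as other isoforms, which gene counts do not separate.

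Cnn1 encodes calponin, an actin-binding inhibitor of the myosin motor found in differentiated smooth muscle (Entrez gene 12797, chromosome 9, 22099221 to 22109221). It had 255 reads in basal ChIP and 149 in basal input, and 128 reads in luminal ChIP and 200 in luminal input. Its basal ratio of 1.45-fold (1.11 to 1.91) excluded 1 without reaching the fold for a call, and its luminal ratio was 0.871 (0.644 to 1.17). Tagln encodes transgelin, a calponin-related actin-binding protein (Entrez gene 21345, chromosome 9, 45929628 to 45936058). It had 138 reads in basal ChIP and 110 in basal input, and 103 reads in luminal ChIP and 140 in luminal input, the fewest of the set in every library. Its ratios were 1.06-fold (0.761 to 1.5) in basal and 1.001 (0.708 to 1.41) in luminal cells, and the 4 libraries overlapped.

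Ordered by the basal ratio, the set ran from Tpm2 and Tpm1 through Oxtr, Cnn1 and Acta2 to Myl9, Mylk, Tagln, Myh11 and Actg2. Neighbours in this order overlapped within their intervals. Of 45 pairs of genes, 2 did not overlap, Tpm2 with Actg2 and Tpm2 with Myh11. In luminal cells all 45 pairs overlapped.

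**Figure D3:**
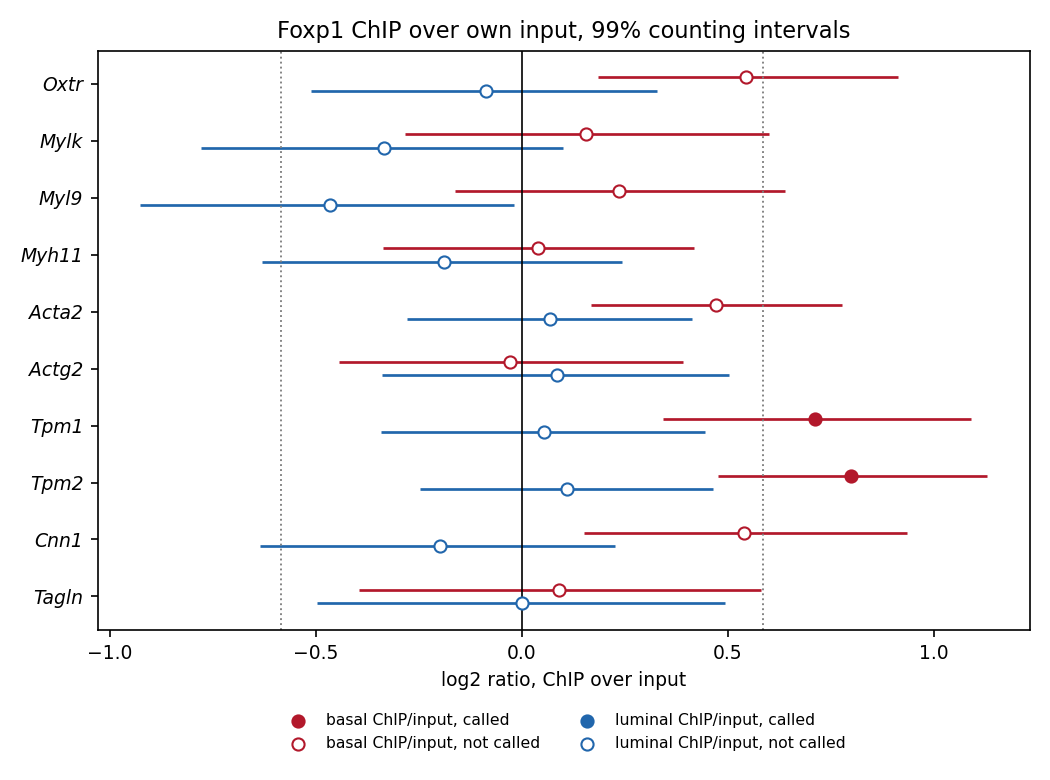
Log2 ratio of ChIP over its own input (horizontal axis) for each contractile gene in basal (red) and luminal (blue) cells, with exact 99% counting intervals; filled points were called and dotted lines mark 1.5-fold. In basal cells Tpm2 (0.80) and Tpm1 (0.71) were called and 5 of the 10 intervals lie above 0, whereas no luminal ratio was called.

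Whether ChIP enrichment differed between the cell types was measured as the basal ratio over the luminal ratio. In this ratio of ratios 5 of the 10 contractile genes were called with basal enrichment above luminal and none the other way, against 3.72% and 4.16% of all tested genes. Their median log2 difference was 0.56, against 0.003 over all genes, and 9 of the 10 lay above 0. The 5 were Cnn1 (log2 0.73, standard error 0.22), Myl9 (0.70, standard error 0.23), Tpm2 (0.69, standard error 0.18), Tpm1 (0.65, standard error 0.21) and Oxtr (0.63, standard error 0.21), all from counting error. Mylk (0.49), Acta2 (0.40), Myh11 (0.23), Tagln (0.09) and Actg2 (-0.11) were not called. All 45 pairs of intervals overlapped. Overlap of intervals is not a test of the difference between 2 genes, and such differences were not tested. All 5 calls were lost when the interval was widened by the spread among olfactory receptor genes. The variance of their counts was 2.29 times that from counting alone in basal and 2.13 times in luminal ChIP over input. The width of an interval grows with the square root of the variance. In that setting 0.886% of all genes were called higher. The 5 genes stayed called under the 7 settings other than this one and the 2-fold threshold. Of the 7, a narrower interval and no fold minimum only relax the rule, so they could not remove a call. Leaving out the count filter left the 5 values unchanged. With the inputs summed the difference is simply the ratio of the ChIP libraries. The receptor centre and DESeq2 size factors raised all 5 values. Total counts lowered them, in Oxtr to log2 0.61.

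In point values, Cnn1, Oxtr and Myl9 had a basal ratio above 1 and a luminal ratio below 1. Tpm1 and Tpm2 had a basal ratio above 1 and a luminal ratio just above 1. The luminal intervals of Cnn1, Oxtr, Tpm1 and Tpm2 included 1, and so did the basal interval of Myl9. These are therefore not shown to be different ways of reaching the difference. The sign differed between the cell types in 6 of the 10 genes, as the scatter of basal against luminal ratios shows. The share of all tested genes with differing signs was not counted, so this is no result about the set. Of all tested genes, 48.45% lay above 0 in basal and 49.62% in luminal cells. Some of the ratios lie near 0, as in Actg2 (-0.03 in basal and 0.09 in luminal cells).

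**Figure D4:**
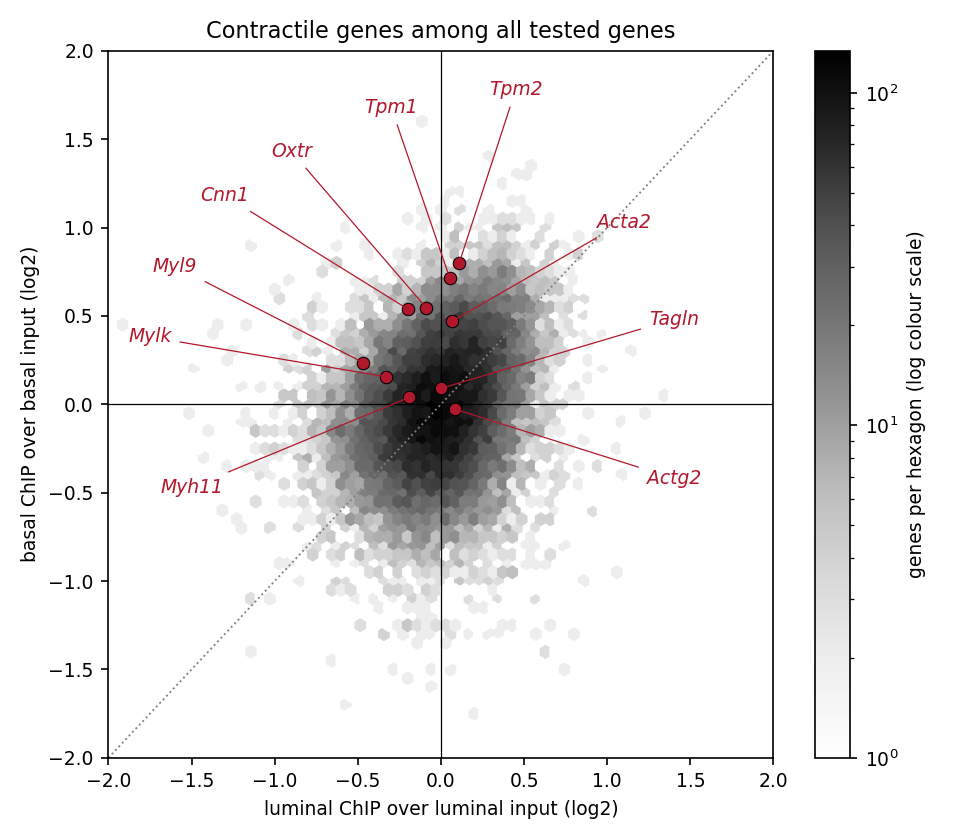
Log2 ratio of ChIP over input in luminal cells (horizontal axis) and basal cells (vertical axis) for all tested genes (grey, log colour scale) and the contractile genes (red); the dotted line marks equal ratios, and 61 genes outside the range of 2 are not drawn. All contractile genes except Actg2 lie above the dotted line, with Tpm2 (0.11 and 0.80) highest.

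The ratio of ratios is the difference between the ChIP libraries less the difference between the inputs, and both parts are given here. Between the ChIP libraries directly, 7 of the 10 genes were called higher in basal ChIP than in luminal ChIP and none lower, where 4.05% of all genes were called higher and 3.98% lower. Oxtr was highest at 1.80-fold (1.38 to 2.37), and Tpm2, Cnn1 and Myl9 followed at log2 0.77, 0.76 and 0.76. Acta2 stood at log2 0.70, Tpm1 at 0.65 and Myh11 at 0.61. Mylk (0.30), Tagln (0.19) and Actg2 (0.06) were not called. The calls on Myh11 and Myl9 were lost with the widened interval, and that on Myh11 also with the receptors as centre. Between the ChIP libraries the variance among receptors was 3.08 times that from counting alone.

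Between the inputs none of the 10 genes was called, against 0.709% of all genes called higher and 0.463% lower in basal input, and the median log2 ratio was 0.09, against -0.001 over all genes. Myh11 (0.38, interval -0.01 to 0.77) and Acta2 (0.30, interval -0.03 to 0.63) were highest, with intervals that reach just below 0. For these 2 genes the input difference was close to or above the remaining difference in enrichment, 0.23 for Myh11 and 0.40 for Acta2. For Cnn1, Tpm1, Tpm2 and Myl9 the input ratios lay between -0.01 and 0.08, so that in point values nearly the whole difference came from the ChIP libraries. All 45 pairs of intervals overlapped between the inputs, and likewise between the ChIP libraries. Such overlap does not show that the genes are alike, and differences between genes were not tested in either part. Mylk combined a ChIP ratio of 0.30 with an input ratio of -0.19. The summed reads of the set were 1.09-fold higher in basal than in luminal input (interval 1.0005 to 1.19), and 1.52-fold higher in basal than in luminal ChIP (1.4 to 1.66).

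**Figure D5:**
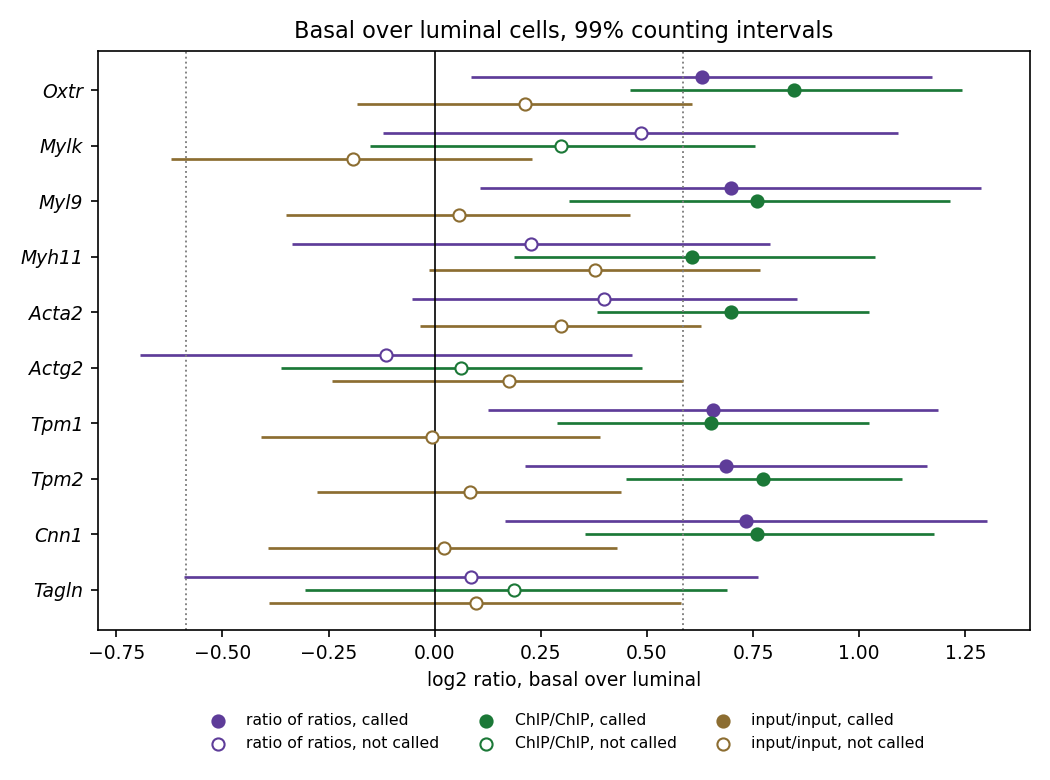
Log2 ratio of basal over luminal cells (horizontal axis) for each contractile gene, as the ratio of ratios (violet), between the ChIP libraries (green) and between the inputs (brown), with 99% counting intervals; filled points were called and dotted lines mark 1.5-fold. For Tpm1, Tpm2, Cnn1 and Myl9 the violet and green points lie close together, whereas for Acta2 and Myh11 the brown points are displaced to 0.30 and 0.38.

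Other genes of the contraction pathway were taken from 5 lists of 57 genes, all tested. The lists were chosen with earlier results of these data known. A further list, of striated muscle genes, is left out of these counts and described below. In basal ChIP over input 8 of the 57 were called higher and 2 lower, and their median log2 ratio was 0.25. In luminal ChIP over input 2 were called higher and 2 lower, with a median of 0.14. In the difference between cell types 5 were called toward basal cells, 0 toward luminal cells, with a median of 0.14, and none was called with the widened interval. Between the ChIP libraries 5 were called higher in basal and 3 lower, against 4.05% and 3.98% of all genes, and with the widened interval 1 (Cald1) was higher and none lower. Between the inputs 1 was called higher and 1 lower. The first 3 comparisons thus had 14.0%, 3.51% and 8.77% of the list called higher, where the background is 4.24%, 1.5% and 3.72%. With the striated muscle genes included, 80 tested genes, the shares were 10.0%, 2.5% and 7.5%. Given how the lists were chosen, these shares are a description only.

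Among 18 thin filament and actin-linked genes, 4 were called higher in basal ChIP and none lower. They were Cnn3 (1.90-fold) and Cnn2 (1.60-fold), which encode calponins of wider distribution than Cnn1, Vcl (1.55-fold, lost with total counts), the focal adhesion protein vinculin, and Cald1, the actin-binding protein caldesmon. The calls on Cnn2 and Vcl were lost with the inputs summed. Cald1 had 489 reads in basal ChIP and 243 in basal input, and 237 reads in luminal ChIP and 294 in luminal input. It was called in basal cells at 1.71-fold (1.39 to 2.10), in the difference at log2 0.64 and between the ChIP libraries at log2 0.81, the same 3 calls as Tpm1 and Tpm2. Flna, the actin crosslinker filamin A, was called in the difference at log2 0.72, though not with the inputs summed. Tpm4, a mainly non-muscle tropomyosin, was called higher in luminal ChIP at 1.56-fold (1.21 to 2.0). Lmod1, a smooth muscle actin nucleator, was called lower in luminal ChIP at 0.61-fold (0.43 to 0.853) and higher in basal than in luminal ChIP at 1.78-fold. Acta1, the skeletal muscle actin, was called lower in basal than in luminal ChIP at log2 -0.64. Neither of these calls between the ChIP libraries was kept with the widened interval.

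Of 6 other myosin subunits, Myl6, the essential light chain of smooth and non-muscle myosin, was called higher in basal ChIP at 1.60-fold and in the difference at log2 0.62. Both calls on Myl6 were lost with the inputs summed. Myh14, a non-muscle heavy chain, was called in the difference at log2 0.67, though not with the inputs summed. Myl12b, a regulatory light chain of non-muscle myosin, was called higher in luminal ChIP at 1.53-fold (1.24 to 1.90), though not with total counts. Of 11 genes of the light chain kinases, the phosphatase and their regulators, Rock2, a kinase that restrains myosin phosphatase, was called higher in basal ChIP at 1.55-fold, though not with total counts. Rhoa, a small GTPase upstream of Rock2, went the other way. It had 18 reads in basal ChIP and 29 in basal input, and 39 reads in luminal ChIP and 39 in luminal input. It was called lower in basal than in luminal ChIP at 0.392-fold (0.174 to 0.828), also at 2-fold but not with the widened interval. Its difference in enrichment was log2 -1.35 (interval -2.74 to 0.03), which was called with a 95% interval. Mylk2, the skeletal muscle kinase, was called in the difference at log2 0.70 and lower in basal input at log2 -0.59, so that its difference came largely from the inputs.

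Among 18 genes of receptors and calcium signalling, Calm2, a calmodulin gene, was called higher in basal ChIP at 1.78-fold (1.4 to 2.28). Avpr1a, the vasopressin receptor closest in kind to Oxtr, was called lower in basal ChIP, with 91 reads over 126 in input, 0.613-fold (0.424 to 0.88). It was also called lower in basal than in luminal ChIP, at log2 -0.75. The widened interval ended both calls. Stim1, the calcium sensor of the endoplasmic reticulum, was called higher in basal than in luminal ChIP at 1.51-fold, though not with total counts, the receptors as centre or the widened interval. Ednrb, an endothelin receptor, was called higher in basal input at 1.60-fold, though not with the olfactory receptors as centre.

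Srf, the transcription factor that binds the CArG box, had 43 reads in basal ChIP and 89 in basal input, and 51 reads in luminal ChIP and 107 in luminal input. It was called lower in basal ChIP at 0.41-fold (0.246 to 0.666), also with the widened interval. In luminal ChIP over input the log2 ratio of Srf was -0.62, which was not called. It was called lower there with total counts, with the inputs summed and with a 95% interval. The difference of Srf between the cell types was not called. Of its cofactors, Mkl1 had 118 reads in basal ChIP over 56 in basal input and was called higher in basal cells at 1.79-fold (1.17 to 2.78) and higher in basal than in luminal ChIP at 2.01-fold (1.29 to 3.18), and neither call was kept with the widened interval. Myocd, the cofactor of heart and smooth muscle, was called lower in luminal ChIP at 0.658-fold (0.45 to 0.949) and higher in basal than in luminal ChIP at 1.82-fold. Both of the Myocd calls were lost with the widened interval.

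Genes of the striated muscle apparatus, which mammary epithelium does not use, gave no higher call in either ChIP over its input, where 4.24% of all genes were called higher in basal and 1.5% in luminal cells. In a list of this size that is near the background. They numbered 24, of which 23 were tested, and in basal ChIP over input none was called, with a median log2 ratio of -0.08. In luminal ChIP over input 2 were called lower, Actn2 at 0.652-fold and Tnnc1 with 4 reads over 21, against 2.13% of all genes, and the median was -0.14. Both calls were lost with the receptors as centre, with the inputs summed and with the widened interval. Actn2, a sarcomeric actinin, was also called higher in basal cells in the difference, at log2 0.70 from 153 reads over 122 (basal ChIP and input) and 92 over 192 (luminal ChIP and input). That call was not kept with the inputs summed or with the widened interval.

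Smooth muscle genes are shared with pericytes and vascular smooth muscle, which can follow epithelial cells in a preparation. Of 8 markers of those cells none was called in either ChIP over its input or in the difference. Of all tested genes 4.24%, 1.5% and 3.72% were called higher there, so that none in a list of this size is near the background. Pdgfrb was called between the ChIP libraries at 1.59-fold, where 4.05% of all genes were called higher. Their summed level was 397 CPM in basal ChIP and 370 in basal input, and 365 in luminal ChIP and 363 in luminal input. None of the marker lists had a gene at 0 reads, the lowest count being 62, so that at the level of DNA no cell type is marked by absence. Of 10 basal markers, 4 of them contractile genes of the set, 7 were called higher in basal cells in the difference, against 3.72% of all genes. Oxtr and Cnn1 are among the 7, so their calls are counted here again. Calls of the marker lists under the other settings were not counted. Of 10 luminal markers none was called in the difference, 3 were called higher in luminal ChIP over its input and 1 in basal ChIP over its input. The shares of all genes called higher were 1.5% in luminal and 4.24% in basal ChIP over input. Between the inputs, basal markers had a median log2 ratio of 0.28 and luminal markers of -0.36. Of 6 fibroblast markers, Dcn was called lower in basal ChIP and in the difference. Of 4 endothelial markers Tek was called lower in basal ChIP, and of 4 leukocyte markers Itgam, and none of these 8 was called in the difference. The shares of all genes called lower were 4.06% in basal ChIP over input and 4.16% in the difference.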

How the data were processed

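The authors deposited raw read counts per gene for 4 libraries, not normalized. Per the submitters' processing notes reads were counted with featureCounts on build mm10, and per the labels' protocols single reads of 75 to 85 bp were sequenced. For the aligner, duplicate handling and counted region, nothing was stated (not given in the sources used here). Both the per-sample files and the series table held equal counts for 24548 of 24548 genes.

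A floor of 40 counts summed over libraries kept 23128 genes, which were scaled with TMM factors (edgeR 4.0.16, R 4.3.3). Other steps used Python 3.11.15, numpy 2.4.6, pandas 2.3.3 and scipy 1.17.1. Each ratio of 2 libraries has an exact Clopper-Pearson 99% interval. The ratio of ratios has an interval from the 4 counts plus 0.5. Reads are not independent molecules where PCR copied them, so intervals cover counting error only. The calculation was tested on simulated data drawn with counting error alone. That test does not cover the wider spread among olfactory receptor genes. Alternatives were total counts, DESeq2 1.42.0 size factors, ratios centred on olfactory receptors, both inputs summed as background, an interval widened by the receptor spread, no count filter, a 95% interval, a 2-fold threshold and no fold minimum. Gene positions, promoter windows and strands come from RefSeq tables of GRCm38.p6, the assembly of mm10, in which 24480 gene IDs were found.

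The members and gene lists were chosen with earlier results of these data known. All 10 contractile genes are named, and a gene of the related lists is named if it was called in any of the 5 comparisons. A marker gene is named as an example after its values were seen.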

Additional observations from a re-analysis of the deposited data

Results flagged for a closer look

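Basal minus luminal enrichment was looked at again in 8 of the contractile genes, because the difference was called or because the 2 cell types had ratios of opposite sign. For 5 of them the counting interval of the difference excluded 0 at 1.5-fold or more: Cnn1 at log2 0.73, Myl9 at 0.70, Tpm2 at 0.69, Tpm1 at 0.65 and Oxtr at 0.63. Cnn1, Myl9 and Oxtr also had ratios of opposite sign in the 2 cell types. Mylk (0.49), Myh11 (0.23) and Actg2 (-0.11) had ratios of opposite sign, but the intervals of their differences included 0. With 1 library per group, none of these differences was tested against the spread between animals or preparations.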

How the results depend on the processing

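In basal ChIP over input, 2 contractile genes were called higher as reported, 5 with the receptors as centre, 4 with the inputs summed, 5 with no fold minimum and 0 at 2-fold. Of all tested genes, the shares called higher in that order of settings were 4.24%, 12.9%, 3.13%, 11.7% and 0.553%. In luminal ChIP over input the count of lower calls was 0 as reported and 1 with no fold minimum (Myl9), where 4.35% of all genes were lower. In the difference between cell types 5 were called as reported and 0 with the widened interval or at 2-fold. In those settings 0.886% and 0.575% of all genes were called higher. Between the ChIP libraries 7 were called as reported and 0 at 2-fold, where 0.8% of all genes were called higher. No called gene changed sign under any alternative. Other counts of calls over the 10 contractile genes stayed within 1.5 times. Of the 57 related genes, the higher calls in basal ChIP over input were 8 as reported, 20 with the receptors as centre, 17 with no fold minimum and 0 at 2-fold. The shares of all genes given above rose and fell with them. In the difference their 5 calls became 14 with the receptors as centre, 9 with no fold minimum and 0 at 2-fold or with the widened interval. Of all genes, 3.72% were called higher in the difference as reported, 8.92% with the receptors as centre and 4.96% with no fold minimum. Between the ChIP libraries their 5 higher and 3 lower calls became 9 and 5 with no fold minimum, 1 and 1 at 2-fold and 1 and 0 with the widened interval. In those settings 9.05% and 7.94%, 0.8% and 1.18%, and 1.2% and 0.757% of all genes were called higher and lower. Beyond those named in the report, calls gained were Acta2 and Oxtr (inputs summed, basal) and Acta2, Cnn1 and Oxtr (receptor centre, basal), and in the difference Mylk (receptor centre) and Acta2 and Myh11 (inputs summed, where it equals the ratio of the ChIP libraries).

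Centring on receptors moved the median of all genes to log2 0.20 in basal ChIP over input, 0.15 in the difference and -0.21 between the inputs. Relative to those, the contractile medians of 0.57, 0.71 and -0.12 stand as before; the sign of the last is turned. Of all genes called, the part called higher was 51.1%, 41.4%, 47.2%, 50.5% and 60.5% in the order basal, luminal, difference, ChIP libraries and inputs. It was 92.7%, 65.1%, 83.6%, 33.8% and 1.4% with the receptors as centre, 34.7% and 30.7% in basal and luminal cells with total counts, and 77.3%, 67.9%, 61.6% and 61.4% with the widened interval in the first 4.

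No paired analysis was possible because each group is 1 library. At 103 to 408 reads per gene and library, differences inside the counting intervals were not detectable.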
